A study of Mus musculus with 4 samples.

Results

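Ribosomal protein genes, and the muscle paralog Rpl3l, were followed in C2C12 cells given sesaminol. The genes were taken from the deposited count table as protein-coding genes whose symbol begins with Rpl or Rps and a digit, or is Rplp0, Rplp1, Rplp2 or Rpsa. Names starting with Rps6k and names of pseudogenes were left out. This gave 86 of the 52636 genes in the table. Of the 86, 77 are canonical ribosomal proteins (46 of the large subunit and 31 of the small subunit) and 8 are paralogs, which were kept apart: Rpl3l, Rpl7l1, Rpl10l, Rpl22l1, Rpl36al, Rpl39l, Rps27l and Rps27rt. The remaining gene, Rps19bp1, encodes a binding protein and is not a ribosomal protein. No gene was chosen by its measured values.

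C2C12 is a line of mouse myoblasts, which fuse into myotubes under differentiation conditions. The sesaminol cells were kept for up to 8 days in adipogenic medium with 50 µM sesaminol, a lignan of sesame seed, and the control cells for up to 8 days in the same medium without it. Polyadenylated RNA was sequenced from 2 sesaminol and 2 control libraries. The labels do not say whether the 2 libraries of each condition are separate cultures, so the spread behind every p-value here may be technical.

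The libraries held 15807638 and 24362899 counts in sesaminol replicates 1 and 2, and 10283135 and 14083165 counts in control replicates 1 and 2. Sesaminol replicate 2 stood apart. Mitochondrial genes held 1.44% of its counts, against 2.95% to 3.36% in the other 3 libraries. The chi-square statistic per degree of freedom was 45.4 between the sesaminol libraries and 7.03 between the controls. That statistic cannot tell which library of a pair differs, and it grows with depth, which was larger in the sesaminol pair. Of 8 muscle markers (Myod1, Myog, Des, Myh3, Acta1, Ckm, Tnnt3 and Mymk), all had counts in every library; they summed to 7244 and 5441 CPM in the sesaminol libraries and 12990 and 12980 CPM in the controls. CPM, counts per 1000000, uses library totals adjusted by the trimmed mean of M-values (TMM). Markers of adipocytes, the fate adipogenic medium favours, summed to 20.8 and 16.5 CPM with sesaminol and 20.7 and 17.97 CPM in controls, of which Pparg had 16.1 and 12.2 CPM with sesaminol and 10.7 and 10.9 CPM in controls. The other 7 adipocyte markers summed to 4.69 and 4.32 CPM with sesaminol and 9.93 and 7.08 CPM in controls. The macrophage marker Cd68 had 9.04 and 12 CPM with sesaminol and 1.19 and 1.17 CPM in controls, while the other 4 macrophage markers summed to 16.3 and 19.9 CPM with sesaminol and 17.97 and 14.3 CPM in controls. Among neuron markers Tubb3 had 26.2 and 3.13 CPM with sesaminol and 85.4 and 68.4 CPM in controls, while the other 3 summed to 4.82 and 12.9 CPM with sesaminol and 8.94 and 8.54 CPM in controls. The 4 endothelial markers summed to 4.75 and 7.31 CPM with sesaminol and 6.75 and 5.40 CPM in controls. The part of these differences in the results was not tested.

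The ribosome is built from ribosomal RNAs and the ribosomal proteins, and the large subunit joins amino acids while the small subunit reads the mRNA. The proteins are made in balanced amounts. In vertebrates their mRNAs begin with a C followed by a run of pyrimidines, the 5′ TOP element, through which mTORC1 and LARP1 control their translation, so that protein synthesis from these mRNAs can change without a change in their level. A few ribosomal proteins have paralogs made in particular tissues. In mouse heart and skeletal muscle Rpl3l takes the place of Rpl3, a protein that reaches close to the site of peptide bond formation, as muscle matures. Rpl10l and Rpl39l are known from male germ cells.

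The canonical ribosomal protein mRNAs showed no change that passed the test. All 77 were tested, with the lowest count of any of them in a library at 46, and 0 of 77 were called higher or lower with sesaminol by edgeR's quasi-likelihood test at an adjusted p under 0.05. Among all 18998 genes tested, 5.95% were called, 2.72% as higher and 3.24% as lower. DESeq2 and limma-voom, which called 7.59% and 5.44% of all genes, likewise called 0 of the 77. At an unadjusted p under 0.05, 5 of the 77 were higher and 2 lower, against 9.32% and 8.54% of all genes. Log2 fold changes, sesaminol over control, ran from -0.74 to 0.68 with a median of 0.09, where the median of all genes was 0.02. No canonical gene reached a 2-fold difference in the fit, while 1808 of all genes did in either direction. In bulk samples a lower amount of RNA per cell and fewer cells of a type cannot be told apart.

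Counted by direction alone, 47 of the 77 had a log2 fold change above 0 and 30 below, where 52.3% of all genes were above 0. Both sesaminol libraries lay above both controls for 17 genes (22.1%), against 24.2% of all genes, and below both controls for 13 genes (16.9%), against 22.8% of all genes. The large subunit split evenly, with 24 of 46 above 0, a median of 0.01, 7 genes above both controls and 10 below. The small subunit had 23 of 31 above 0, a median of 0.13, 10 genes above both controls and 3 below. The difference between the subunits was not tested. The small subunit median was 0.03 without sesaminol replicate 2 and 0.04 without control replicate 2, so it rested in part on each of these libraries.

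**Figure D1:**
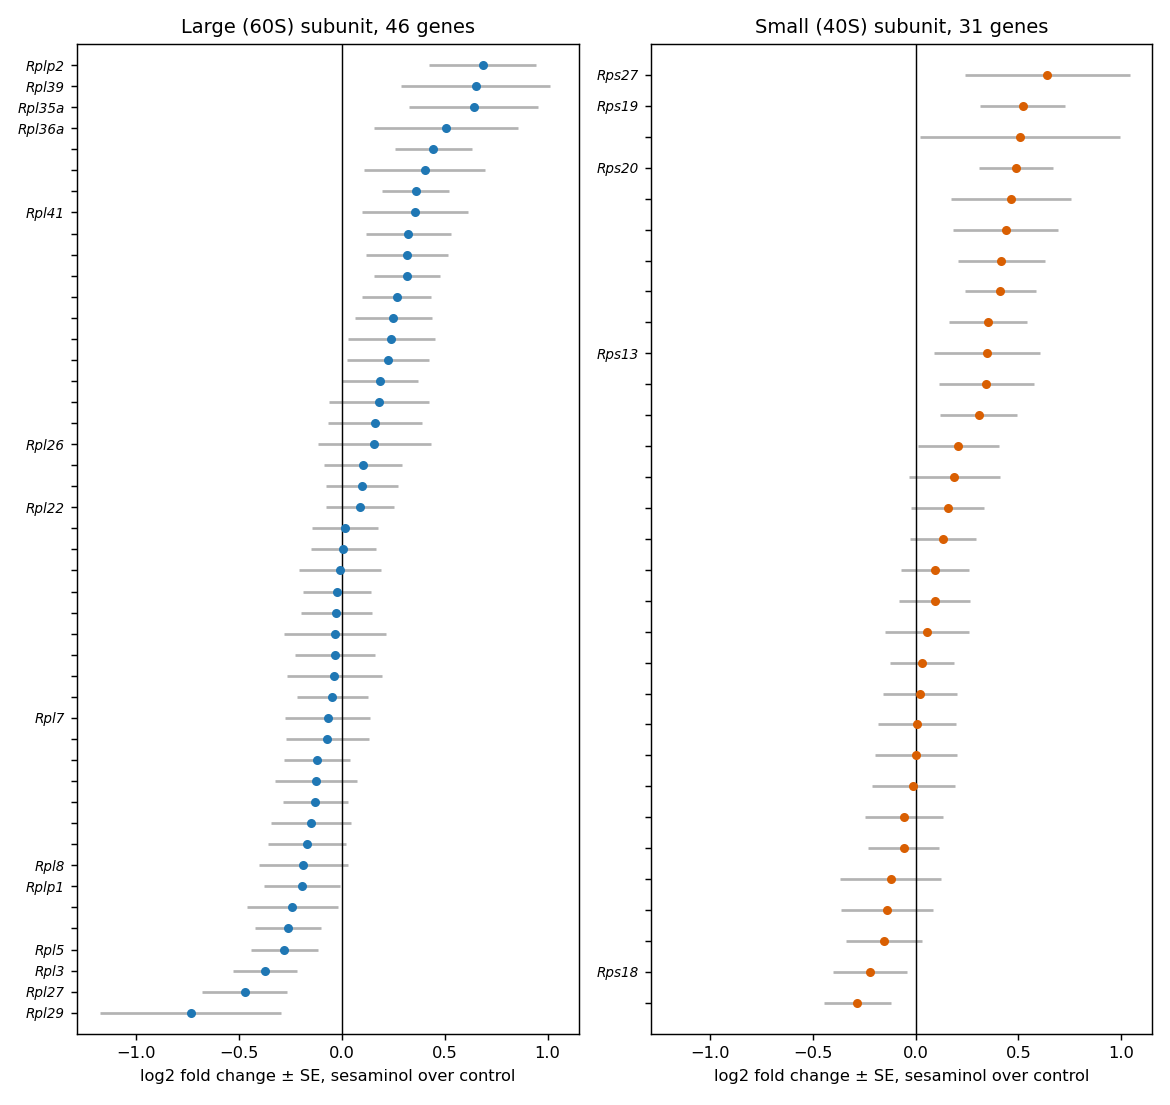
Log2 fold change, sesaminol over control, with its standard error for the 46 large subunit genes (left) and the 31 small subunit genes (right), sorted within each panel, with genes described in the text labelled; the vertical line marks no difference. Values run from -0.74 for Rpl29 to 0.68 for Rplp2, and 0 of 77 passed the test.

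As a share of the whole library, canonical ribosomal protein genes held 0.899% and 1.05% of counts in sesaminol replicates 1 and 2, and 0.958% and 0.867% in control replicates 1 and 2. Sesaminol replicate 1 lay between the controls and replicate 2 above them. The difference of means was 0.064 percentage points (exact permutation test over 4 libraries, two-sided, p = 0.667, where the smallest p this design allows is 0.33). Leaving mitochondrial genes out of the total gave 0.930% and 1.07% with sesaminol and 0.988% and 0.893% in controls, with the same p of 0.667.

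The 5 largest log2 fold changes belonged to Rplp2, Rpl39, Rpl35a, Rps27 and Rps19. Rplp2, which encodes an acidic protein of the stalk that recruits elongation factors (chromosome 7, 141447370 to 141451585, plus strand, GRCm38), had 61.2 and 112 CPM in sesaminol replicates 1 and 2, against 52.8 and 55.4 CPM in control replicates 1 and 2. Both sesaminol libraries were above both controls, and replicate 2 was far above replicate 1. Its log2 fold change was 0.68 ± 0.26 (SE; edgeR adjusted p = 0.199). Rplp2 was the 1 canonical gene that passed when genes with low counts were not filtered out (edgeR adjusted p = 0.0109, 2.68% of genes called higher) or when the replicate number was a block (edgeR adjusted p = 0.0495, 4.7% called higher). Over the alternatives its adjusted p ran from 1.37e-08 without sesaminol replicate 1 to 0.658 without control replicate 1.

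Rpl39, a small protein at the exit of the peptide tunnel, had 11.9 and 29.1 CPM with sesaminol, against 12.6 and 13.7 CPM in controls. Rpl35a, mutated in some people with Diamond-Blackfan anaemia, had 18.6 and 39.96 CPM with sesaminol, against 19.7 and 18.2 CPM in controls. In both genes sesaminol replicate 1 lay within or just below the range of the controls and replicate 2 at about 2 times their level. Rps27, a zinc-finger protein of the small subunit, had 4.96 and 9.54 CPM with sesaminol and 5.56 and 3.87 CPM in controls. Rps19, also mutated in Diamond-Blackfan anaemia, had 49.9 and 73.7 CPM with sesaminol, against 42.8 and 43.5 CPM in controls. The groups overlapped for Rpl39, Rpl35a and Rps27 and did not for Rps19, whose log2 fold change was 0.52 ± 0.21 (edgeR adjusted p = 0.219). The smallest adjusted p of the 77, chosen after the values were seen, was that of the small subunit gene Rps20. It had 185.7 and 223.9 CPM with sesaminol, against 151.9 and 140.4 CPM in controls, which gave 0.49 ± 0.18 in log2 (edgeR adjusted p = 0.182).

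Among the 5 lowest log2 fold changes were those of Rpl29, Rpl27, Rpl3 and Rpl5. Rpl3 (chromosome 15, 80077791 to 80091868, minus strand, GRCm38) had 59.4 and 57.2 CPM with sesaminol, against 77.8 and 73.3 CPM in controls. Both sesaminol libraries lay close together and below the controls, and the log2 fold change was -0.37 ± 0.16 (SE), with an adjusted p of 0.2499 in edgeR. Rpl5, which with Rpl11 and 5S rRNA can bind the p53 regulator Mdm2, had 68.8 and 62.8 CPM with sesaminol, against 84.4 and 75.3 CPM in controls. Rpl27 had 44.7 and 33.9 CPM with sesaminol and 62.3 and 46.6 CPM in controls. Rpl29 was the canonical gene with the lowest level, at 3.08 and 2.83 CPM with sesaminol and 6.56 and 3.36 CPM in controls, and its log2 fold change of -0.74 had a standard error of 0.44. These 4 genes were below both controls in both sesaminol libraries, and none passed the test.

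How the ribosomal protein genes appeared depended on sesaminol replicate 2. Without sesaminol replicate 1, so that replicate 2 alone stood against the controls and was assumed to vary like them, 21 canonical genes were called higher and 5 lower by edgeR, where 9.36% of all genes were called higher and 13.3% lower. Among the higher genes were Rpl18, Rpl23a, Rpl28, Rpl30, Rpl35a, Rpl36a, Rpl37, Rpl39, Rpl41, Rplp2, Rps15, Rps16, Rps19, Rps20, Rps21, Rps25, Rps26, Rps27, Rps28 and Rps29, and among the lower ones Rpl3, Rpl6, Rpl15 and Rpl27. Without sesaminol replicate 2, with replicate 1 alone against the controls, 0 of 77 were called, where 15.1% of all genes were. Leaving out either control gave 0 of 77, where 2.46% and 2.18% of all genes were called. The median canonical log2 fold change was 0.07 without sesaminol replicate 1 and -0.01 without sesaminol replicate 2.

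The genes that were high in sesaminol replicate 2 were mostly short ones. The 77 coding parts run from 75 nucleotides in Rpl41 to 1257 in Rpl4. Across these 77 genes, coding length and the log2 fold change had a Spearman rho of -0.58, given as a description, since the genes share the same 4 libraries. Against the control mean, rho was -0.04 in sesaminol replicate 1 and -0.64 in sesaminol replicate 2. Between control replicates 1 and 2 it was -0.46, so an association of this sign also appeared within the control group. Over 14406 other protein-coding genes, rho with the log2 fold change was 0.01. For sesaminol replicate 2 minus sesaminol replicate 1, rho was -0.61 in the canonical genes and 0.16 in the other genes. With log2 mean CPM in place of coding length, rho in the canonical genes was -0.56 for that difference. Against the control mean, the rho with level was 0.33 in sesaminol replicate 1 and -0.43 in sesaminol replicate 2. The parts of length and level were not tested apart.

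By length class, the 27 canonical genes with over 300 and up to 450 coding nucleotides had a median log2 difference from the control mean of 0.03 in sesaminol replicate 1 and 0.46 in sesaminol replicate 2. The 19 genes with over 600 and up to 900 nucleotides had medians of 0.02 and -0.12 in the same libraries. The 9 genes of up to 300 nucleotides had medians of -0.10 and 0.75, and the 19 genes with over 450 and up to 600 nucleotides had -0.09 and 0.08; classes under 20 genes are thinly filled. Among other protein-coding genes of over 300 and up to 450 nucleotides, 661 in number, the medians were 0.04 and 0.01. The shift of short genes in sesaminol replicate 2 was thus larger in canonical ribosomal protein genes than in other genes of the same coding length, a difference that was not tested. Restricted to canonical genes with over 450 coding nucleotides, a choice made after the data were seen, the median log2 fold change was -0.03. Sesaminol replicate 2 is also the library with the lowest share of mitochondrial counts, whose part in this pattern was not tested.

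**Figure D2:**
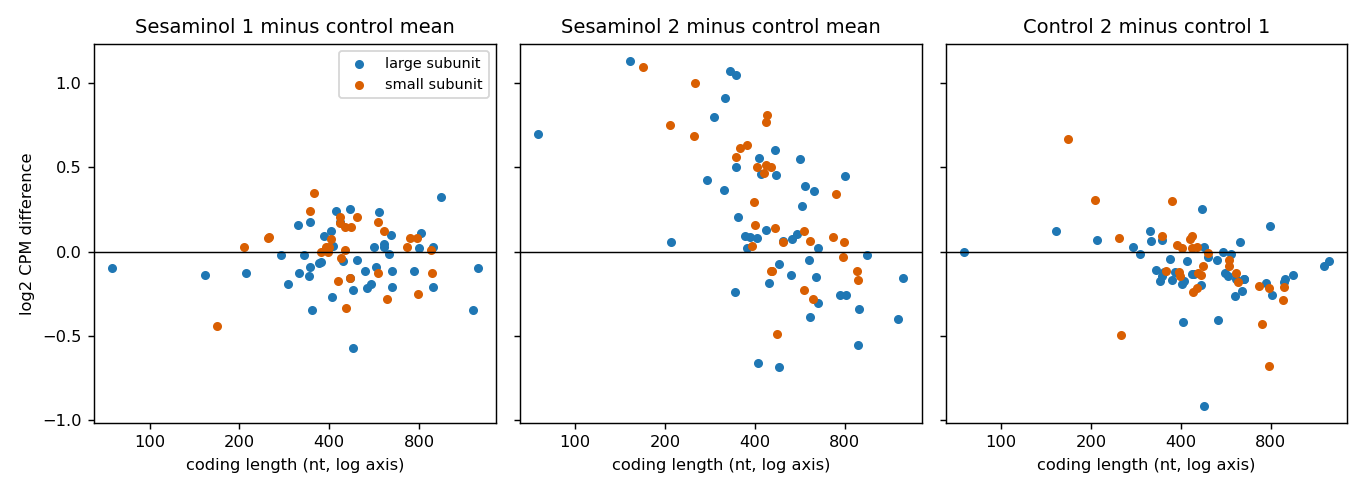
Difference in log2 CPM for each of the 77 canonical genes against its coding length in nucleotides (log axis), for sesaminol replicate 1 minus the control mean (left), sesaminol replicate 2 minus the control mean (middle) and control replicate 2 minus control replicate 1 (right); colours give the subunit. Of 36 genes with up to 450 coding nucleotides, 33 lie above 0 in the middle panel (Spearman rho over all 77 -0.64) and 17 in the left panel (rho -0.04), and the right panel has a rho of -0.46.

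Levels per length differed widely between the canonical genes. Rpl41, the gene of the shortest ribosomal protein, had a mean level over the 4 libraries of 3726 CPM per kb of coding length, the highest on that scale, followed by Rpl8 at 1012 and the stalk gene Rplp1 at 889 CPM per kb. The lowest were Rpl29 at 8.24, Rpl26 at 17.5 and Rps13 at 22.1 CPM per kb, and the highest was 452 times the lowest. The order depended on the length used, since counts are taken over whole exons: per kb of transcript, a choice made after the data were seen, Rpl41 had 480.1 CPM and ranked 5, below Rpl8 at 916.9, Rplp1 at 609.3, Rplp0 at 582.8 and Rps14 at 518.6. Rpl29 remained the lowest at 5.57 CPM per kb of transcript, and the highest was then 165 times the lowest. None of the 3 highest and 3 lowest genes by coding length passed the test between groups. Rpl8 had 765.7 and 693.7 CPM with sesaminol, against 885.2 and 776.7 CPM in controls; Rpl41 had 229.0 and 398.1 CPM with sesaminol, against 245.5 and 245.1 CPM in controls. Both Rpl8 values with sesaminol lay below both controls, while for Rpl41 the sesaminol values lay on either side of the controls.

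Ribosomal protein genes have many processed pseudogenes, copies of the mRNA put back into the genome, and reads from the 2 cannot always be told apart. Of the 77 canonical genes, 76 shared at least 1 run of 50 coding nucleotides with a pseudogene, and 30 had no run of 50 nucleotides of their own. The median gene had 6.95% of its runs to itself. Level and own sequence went together across the 77 genes (Spearman rho 0.58 per coding length and 0.55 per transcript length, a description). The 30 genes with no own run had a median of 78.5 CPM per kb, the 28 with up to 20% had 112.0, the 9 with 20 to 50% had 344.1 and the 10 with more than 50% had 498.3 CPM per kb. Own sequence had a rho of -0.03 with the log2 fold change.

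**Figure D3:**
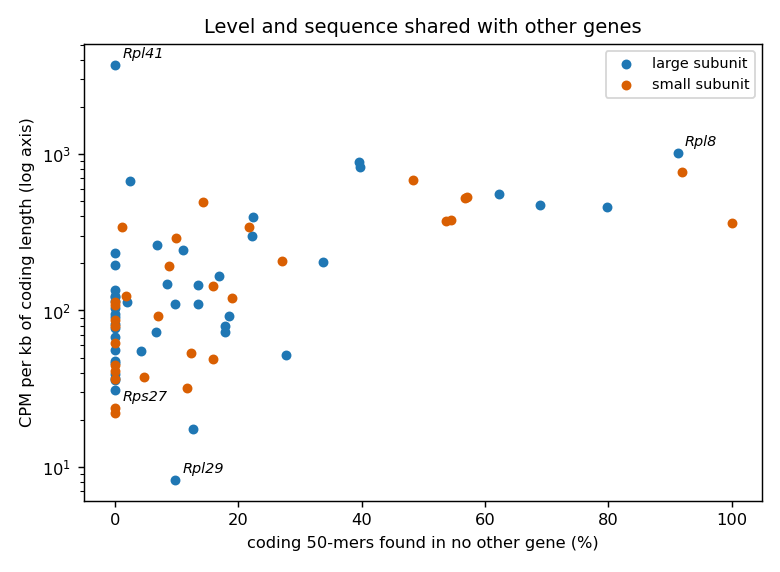
Mean level over the 4 libraries in CPM per kb of coding length (log axis) against the percentage of 50-nucleotide coding runs found in no other gene, for the 77 canonical genes, coloured by subunit. The 10 genes with over 50% own runs lie between 364 and 1012 CPM per kb, and the 30 genes with none lie between 22.1 and 3726.

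In all, 983 pseudogenes shared such a run with a canonical gene, and 667 of them had counts. They held 1.42% and 1.35% of counts in sesaminol replicates 1 and 2, and 1.54% and 1.38% in control replicates 1 and 2, more than the canonical genes themselves. Pseudogene counts were 1.58 and 1.28 times the canonical counts in sesaminol replicates 1 and 2, and 1.60 and 1.59 times in the controls. Sesaminol replicate 2 thus had fewer pseudogene counts for its canonical counts than the other 3 libraries. Of 72 canonical genes whose pseudogenes held at least 100 counts over the 4 libraries, 47 had their lowest pseudogene share in sesaminol replicate 2, 5 in sesaminol replicate 1, 15 in control replicate 1 and 5 in control replicate 2.

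For 50 of the 77 genes, most of the sum of gene and pseudogenes lay in the pseudogenes. Rpl3 held 887 and 1534 counts with sesaminol and 783 and 1003 in controls, while its 26 pseudogenes held 10644 and 10605 counts with sesaminol and 8938 and 11220 in controls. In Rps18, chosen after the values were seen, pseudogenes held 79.1% and 26.3% of the sum in sesaminol replicates 1 and 2, and 80.1% and 77.7% in the controls. With the counts of each gene and its pseudogenes summed, also chosen after the data were seen, log2 ratios of sesaminol to control ran from -1.13 for Rps18 to 0.62 for Rplp2. Their median was -0.00026, against 0.09 for the fitted log2 fold changes of the genes alone. The measures differ: Rplp2, whose pseudogene had 0 counts, was at 0.62, against 0.68 in the fit. Rpl39 moved most among the 5 highest, with 0.65 in the fit and -0.00026 with its 8 pseudogenes. Its own log2 differences from the control mean were -0.14 in sesaminol replicate 1 and 1.13 in sesaminol replicate 2. Besides pseudogenes, 16 canonical genes overlapped an exon of another gene that had at least 20% of their counts, among them Rps18 with Vps52 and Rpl13a with Gm45713, and whether reads were assigned by strand is not given in the sources used here. Leaving these out gave a median of 0.09.

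The transcription starts of the canonical genes were also described by their sequence. Sequences around starts in RefSeq (GRCm38.p6) were matched by symbol for 57 of 77 canonical genes, with 67 starts. They were searched on the strand of the transcript for CTTTC, a C followed by pyrimidines, from 50 bases before to 50 after the start. A match may thus lie before the start, and a start without CTTTC may still begin with a run of pyrimidines. CTTTC was found at 35 of the 67 starts (52.2%) and so in 31 of the 57 genes, against 12.8% of 32851 starts of all genes. On the opposite strand, where it reads GAAAG, it was found at 8.96% of canonical starts and 12.1% of all starts. Among the 8 paralogs CTTTC was found at 3 of 10 starts, that of Rps27rt among them, and at 3 on the opposite strand. The following starts run from 10 bases before the start to 18 bases from it onwards, with CTTTC in capitals. They show CTTTC in 3 of the genes with the largest fold changes, beside a start of Rpl3l, whose 28 bases do not hold it. For Rpl35a, which has further starts, only the printed one holds it in these 28 bases. In Rps27 the first match lies before the start.
Rplp2, chr7:141447641-141447668, plus strand: cagcgtcttcCTTTCgccgccggacgcc
Rpl35a, chr16:33056472-33056499, plus strand: gcttgccttcctCTTTCcgccatcttgg
Rps27, chr3:90213631-90213658, minus strand: cgCTTTCgctcCTTTCcggcggtgacga
Rpl3l, chr17:24727816-24727843, plus strand: ttctagctctgtcatttgacctctggtg
The 31 canonical genes with CTTTC near a start had a median log2 fold change of 0.16, and the 26 without it 0.10. A match is a description of these letters only.

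Rpl3l was at the edge of detection in both groups. The gene lies on chromosome 17, 24727820 to 24736143, plus strand (GRCm38). It had 5 and 8 counts in sesaminol replicates 1 and 2, and 2 and 7 counts in control replicates 1 and 2, which is 0.335 and 0.298 CPM with sesaminol and 0.199 and 0.511 CPM in controls. A level of 3 counts corresponds to 0.201, 0.112, 0.298 and 0.219 CPM in the same order of libraries. The sesaminol values lay between the control values. It fell under the filter on low counts and was not among the genes tested. Over each group, 13 counts with sesaminol and 9 in controls gave 0.311 and 0.379 CPM, a ratio of 0.822 with a 95% exact interval of 0.325 to 2.18, which covers counting error only. A difference between the groups within this interval was not detectable at this depth.

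Rpl3l made up 0.561% and 0.519% of the counts of Rpl3 and Rpl3l together with sesaminol, and 0.255% and 0.693% in controls. Per kb of coding length its mean level was 0.275 CPM, against 55.3 CPM for Rpl3. All 50-nucleotide runs of its coding part are its own, and the coding parts of Rpl3l and Rpl3 are 74.1% identical over 1206 aligned nucleotides. Their first 90 coding nucleotides follow, with the 21 positions that differ in capitals, to show how far apart reads of the paralogs are (plus strand of chromosome 17 and minus strand of chromosome 15; GENCODE release M21, GRCm38).
Rpl3l: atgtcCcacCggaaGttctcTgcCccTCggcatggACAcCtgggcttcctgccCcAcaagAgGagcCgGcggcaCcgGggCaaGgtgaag
Rpl3: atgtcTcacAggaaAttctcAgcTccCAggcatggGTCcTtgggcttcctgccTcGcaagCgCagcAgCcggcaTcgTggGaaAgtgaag
Of a second pair of genes that exchange as muscle matures, Eef1a1 and Eef1a2 of elongation factor 1A, Eef1a2 had 0 and 2 counts with sesaminol and 2 and 0 in controls. Eef1a1 had 4008 and 2664 CPM with sesaminol and 3982 and 3717 CPM in controls. Of 5 markers of heart muscle, a tissue where Rpl3l is made, Myh6 had 1.34 and 4.18 CPM with sesaminol and 13.7 and 11.4 CPM in controls. The other 4 summed to 3.42 and 1.53 CPM with sesaminol and 2.88 and 3.36 CPM in controls, and 1 of the 5 was at 0 in each library.

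The paralogs known from male germ cells were at or near 0. Rpl10l, an autosomal stand-in for the X-linked Rpl10, had 0 counts in all 4 libraries, and Rpl39l had 0 and 4 counts with sesaminol and 4 and 0 in controls. The 5 testis germ cell markers summed to 0.804 and 1.12 CPM with sesaminol and 0.795 and 0.876 CPM in controls.

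**Figure D4:**
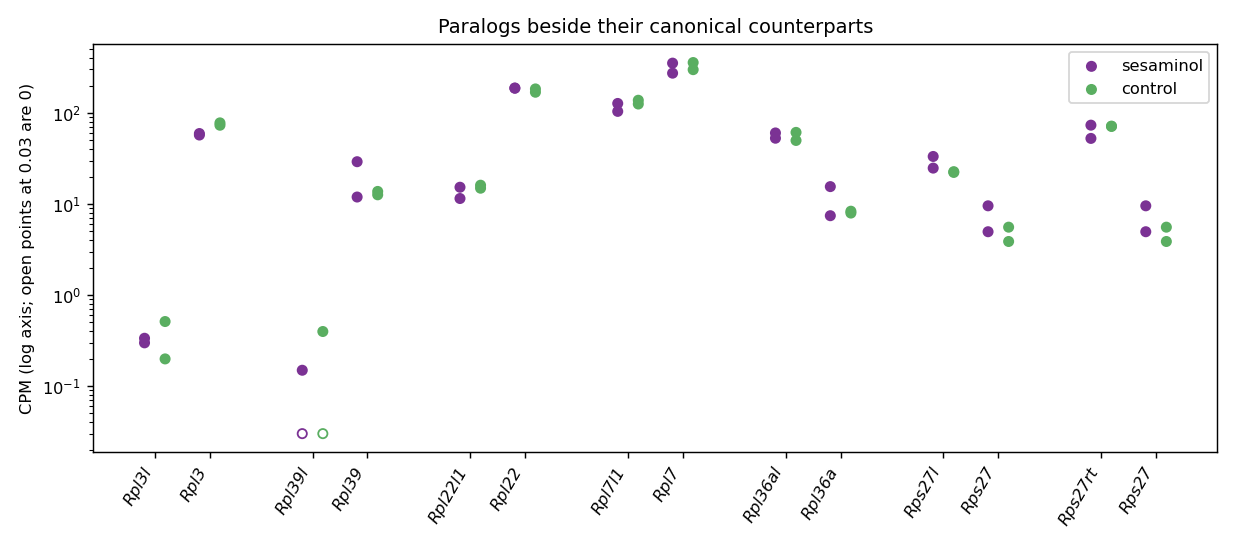
CPM (log axis) in each library of 7 paralogs, each beside its canonical counterpart, with the sesaminol libraries left of the controls; open points mark libraries with 0 counts, and Rpl10l, with 0 in all libraries, is not drawn. Rpl3l lies below 1 CPM in all 4 libraries while Rpl3 lies between 57.2 and 77.8 CPM.

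The other 5 paralogs were expressed, and 0 of 5 passed the test. Rps27l, a p53 target in human cells, had 24.8 and 33.3 CPM with sesaminol, against 22.6 and 22.2 CPM in controls, with both sesaminol libraries above both controls and a difference of 0.38 ± 0.20 in log2 (edgeR adjusted p = 0.380). Rpl7l1, which is known from the nucleolus and early assembly of the large subunit, had 127.1 and 104.0 CPM with sesaminol, against 137.8 and 125.3 CPM in controls. Rpl22l1 had 15.3 and 11.5 CPM with sesaminol, against 14.9 and 16.1 CPM in controls; it has an antisense neighbour on its exons, Gm33051, with 43.5% of its counts. For Rpl7l1 and Rpl22l1 the groups overlapped, and the log2 fold changes were -0.19 ± 0.18 and -0.22 ± 0.23 (edgeR adjusted p = 0.683 and 0.729).

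Rpl36al, an autosomal copy of the X-linked Rpl36a, had 60.3 and 52.8 CPM with sesaminol, against 49.9 and 61.1 CPM in controls, or 0.02 ± 0.18 in log2 (edgeR adjusted p = 0.974). Its exons overlap those of Gm49383, which had 268.9% of its counts on the same strand. Neither Rpl36al nor Rpl36a has a run of 50 coding nucleotides of its own, so their reads cannot always be told from those of other genes. Rps27rt, an intronless copy of Rps27 on chromosome 9 (114982366 to 114982739, minus strand), had 73.4 and 52.5 CPM with sesaminol, against 71.1 and 71.6 CPM in controls, or -0.18 ± 0.19 as log2 fold change (edgeR adjusted p = 0.727). Leaving out sesaminol replicate 1, a fit that called 22.7% of all genes, brought 2 of the 5 past the threshold, Rps27l at 0.53 in log2 (edgeR adjusted p = 0.0232) and Rps27rt at -0.48 (edgeR adjusted p = 0.0253). Over their alternatives the adjusted p of Rps27l reached 1.00 and that of Rps27rt 1.00, both without control replicate 1.

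The coding parts of Rps27 and Rps27rt are identical over all 252 nucleotides, so their reads cannot be told apart there, and Rps27l differs from Rps27 at 63 of 252 aligned positions. The first 90 coding nucleotides of Rps27l and Rps27 follow, with the 24 differences in capitals, to set a paralog that reads can separate beside one that they cannot (plus strand of chromosome 9 and minus strand of chromosome 3; GENCODE release M21, GRCm38). The same stretch of Rps27rt differs from that of Rps27 at 0 positions.
Rps27l: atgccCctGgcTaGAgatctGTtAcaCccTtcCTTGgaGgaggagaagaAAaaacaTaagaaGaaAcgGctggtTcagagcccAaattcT
Rps27: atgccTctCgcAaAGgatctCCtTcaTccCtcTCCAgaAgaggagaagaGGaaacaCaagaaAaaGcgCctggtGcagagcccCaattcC
Rps27rt held 93.7% and 84.6% of the counts of Rps27 and Rps27rt together in sesaminol replicates 1 and 2, and 92.8% and 94.9% in the controls. Rps27 was high and Rps27rt low in the same library, sesaminol replicate 2.

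The balance between paralog and counterpart was compared within each library as a log2 ratio, for the 5 pairs whose paralog passed the filter on low counts. Rpl3l did not pass it, so its pair was not compared. The log2 ratios of Rpl3l over Rpl3 were -7.47 and -7.58 with sesaminol and -8.61 and -7.16 in controls. Sesaminol minus control was -0.12 for Rpl7l1 over Rpl7 (exact permutation p = 0.33, the smallest possible), -0.31 for Rpl22l1 over Rpl22 (exact permutation p = 0.667), -0.21 for Rps27l over Rps27 (exact permutation p = 0.667), -0.77 for Rps27rt over Rps27 (exact permutation p = 0.667) and -0.37 for Rpl36al over Rpl36a (exact permutation p = 1.0). None could reach 0.05 in this design. Without sesaminol replicate 2 the Rps27rt difference was -0.05 and that of Rpl36al 0.25. Rps27 had 74 and 256 counts with sesaminol and 56 and 53 in controls.

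Beyond the ribosomal proteins themselves, genes of ribosome supply were grouped by role. Fau, a ribosomal protein fused to a ubiquitin-like protein, and the ribosome-bound scaffold Rack1 had log2 fold changes of 0.06 and -0.04, and 0 of the 3 genes in their list were called. Among 20 elongation factors and other TOP mRNAs tested, 0 were higher and 1 was lower, with a median log2 fold change of 0.01. Of all genes, 2.72% were called higher and 3.24% lower. The median of the 20 was -0.09 without sesaminol replicate 1 and 0.08 without sesaminol replicate 2. The lower one in the fit to all libraries was Naca, a subunit of the complex that meets nascent chains at the ribosome. It had 199.1 and 163.1 CPM with sesaminol, against 299.4 and 362.5 CPM in controls, which is -0.87 ± 0.20 in log2 (edgeR adjusted p = 0.0358). The sesaminol libraries were both below the controls, and the call was lost without control replicate 1 (edgeR adjusted p = 0.170) or control replicate 2 (edgeR adjusted p = 0.529). Its lowest adjusted p was 4.43e-09, without sesaminol replicate 1.

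The 13 snoRNA host genes tested, whose introns yield guide RNAs for ribosomal RNA modification, had a median log2 fold change of -0.31, with 8 below 0, 0 called higher and 1 called lower, where 3.24% of all genes were called lower. The median of the 14 hosts tested was -0.30 without sesaminol replicate 1 and -0.24 without sesaminol replicate 2. The gene called in the fit to all libraries was Gas5, a non-coding TOP RNA, at 16.2 and 12.2 CPM with sesaminol and 27.3 and 24.9 CPM in controls (log2 fold change -0.88 ± 0.21, edgeR adjusted p = 0.0418). It did not pass with library size alone as scaling (edgeR adjusted p = 0.0529), without control replicate 1 (edgeR adjusted p = 0.328) or without control replicate 2 (edgeR adjusted p = 0.185). Over its alternatives the adjusted p went down to 8.21e-07, without sesaminol replicate 1.

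Of 70 genes for ribosome assembly and rRNA processing tested, 0 were called, 16 had a log2 fold change above 0 and 54 below, and the median was -0.13. At an unadjusted p under 0.05, 1 was higher and 10 lower, against 8.54% of all genes lower. At the adjusted threshold, the replicate block called 0 higher and 3 lower. DESeq2, no filter, library size alone and upper quartile scaling each called 0 higher and 2 lower. A filter at a mean of 5 CPM gave 0 higher and 1 lower. These fits called 2.84% (no filter) to 5.17% (replicate block) of all genes lower. The median was -0.05 for sesaminol replicate 1 minus the control mean and -0.22 for sesaminol replicate 2. Bop1 had the lowest log2 fold change of the list, -0.85 (edgeR adjusted p = 0.0832). It had 429.3 and 291.1 CPM with sesaminol, against 693.1 and 604.1 CPM in controls. Of 2 genes chosen after their values were seen, Fbl, the methyltransferase of box C/D snoRNPs, had 4.96 and 7.42 CPM with sesaminol and 9.93 and 7.81 CPM in controls, and the nucleolar protein gene Ncl 354.9 and 275.6 CPM with sesaminol and 336.0 and 413.3 CPM in controls. Without sesaminol replicate 1, edgeR called 1 higher and 15 lower, where 9.36% of all genes were called higher and 13.3% lower. Without sesaminol replicate 2 it called 0 higher and 4 lower, where 8.06% of all genes were called higher and 7.04% lower. The remaining lists had 0 calls in the fit to all libraries: 15 genes of RNA polymerase I and its factors (median -0.07), 13 of ribosomal protein import and chaperones (-0.03), 31 regulators of ribosomal protein mRNA and ribosome supply (-0.03) and 53 translation initiation factors (-0.07). Without sesaminol replicate 1 these 4 lists had 0, 0, 2 and 3 higher and 4, 4, 6 and 13 lower, in the order given. Without sesaminol replicate 2 the regulators had 3 higher and 3 lower and the initiation factors 4 higher and 0 lower. With the replicate block, the regulators and the initiation factors each had 2 higher and 1 lower. Of all genes, that fit called 4.7% higher and 5.17% lower. With no filter the regulators had 2 higher and 0 lower and the initiation factors 2 higher and 1 lower. The fit with no filter called 2.68% of all genes higher and 2.84% lower. DESeq2 called 1 initiation factor lower, where it called 4.21% of all genes lower. Scaling by library size alone called 1 initiation factor higher, where 2.91% of all genes were called higher.

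Of 78 mitochondrial ribosomal protein genes, which serve the separate ribosomes inside mitochondria, 1 was called higher and 0 were called lower. Of all genes, 2.72% were called higher and 3.24% lower. The median log2 fold change of the 78 was -0.01. It was -0.04 without sesaminol replicate 1 and -0.002 without sesaminol replicate 2. The higher gene in the fit to all libraries was Mrps6, at 162.0 and 226.7 CPM with sesaminol, against 53.1 and 51.4 CPM in controls (3.72-fold, log2 fold change 1.90 ± 0.20, edgeR adjusted p = 0.00154). Both sesaminol libraries were above both controls, and the call held without each library in turn. Its exons overlap those of Slc5a3, the myo-inositol transporter gene on the same strand, which had 74.0% as many counts, so reads from the overlap cannot be told apart in these counts.

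**Figure D5:**
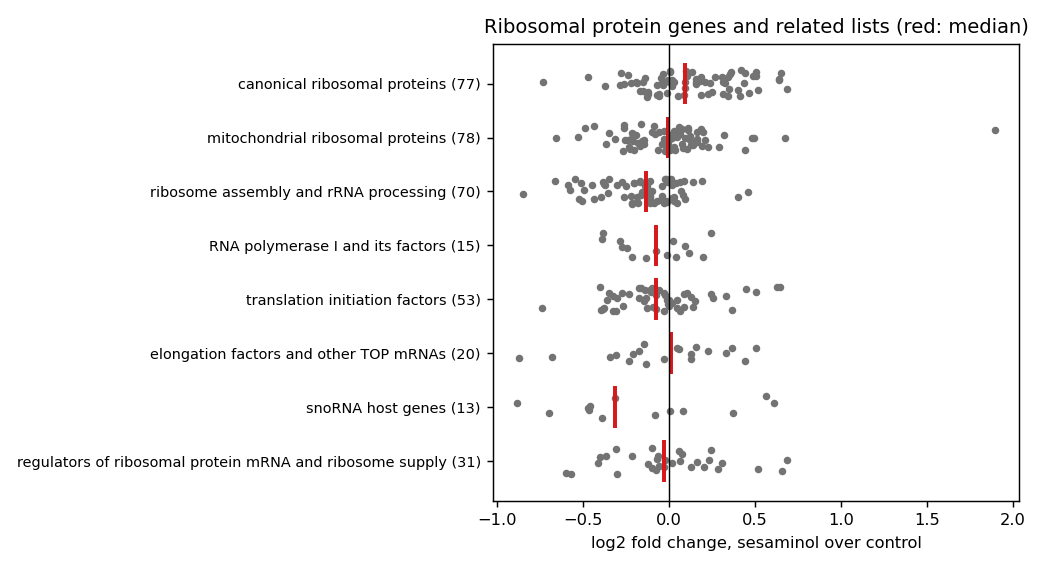
Log2 fold change, sesaminol over control, of every tested gene in the canonical ribosomal proteins and 7 related lists, with the median of each as a red line and the number tested in parentheses. Medians lie between -0.31 for snoRNA host genes and 0.09 for canonical ribosomal proteins, and the point at 1.90 is Mrps6.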

How the data were processed

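Polyadenylated RNA was measured in 2 sesaminol and 2 control libraries. The deposited values are raw counts per gene, as whole numbers that the authors did not normalize. Per the submitters' processing notes, FastQC, MultiQC, fastp, Picard, featureCounts and edgeR were used with the build GRCm38. Which aligner, strand setting and handling of reads with several matches were used is not given in the sources used here. Among counts from 1 to 12, 75.8% to 79.6% were even, so both reads of a pair may have been counted, which would make counting intervals too narrow and the limit of 3 counts too low.

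The filter filterByExpr was applied (at least 10 counts, 15 in total), and genes were scaled by TMM and compared with edgeR 4.0.16 in R 4.3.3 (glmQLFit and glmQLFTest on all 4 libraries, two-sided, Benjamini-Hochberg over 18998 genes, threshold 0.05). The standard error is the log2 fold change over the square root of the F statistic. Differences between single libraries use log2 of CPM plus 0.25. The procedure was tested on simulated data. Alternatives were other scalings and filters, DESeq2 1.42.0, limma-voom (limma 3.58.1), a replicate block and leaving out each library.

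Positions and coding lengths are from GENCODE M21 (GRCm38), in which shared runs of 50 nucleotides were sought, and start sequences from RefSeq (GRCm38.p6). Rps3a1 was counted as canonical. The genes and lists were chosen with earlier results of these data known. Named genes are the paralogs and their counterparts, the 5 highest and 5 lowest log2 fold changes, the 3 highest and 3 lowest levels and called list members; other genes named, as examples, markers or members of a short list, were chosen with their values known. Some genes within this rule are not reported here by name.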

Additional observations from a re-analysis of the deposited data

How the results depend on the processing

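The number of genes called among all tested, 1131, was 1913 with no filter on low counts, 1875 with the replicate block, and 452 to 4642 when 1 library was left out. The number of canonical ribosomal protein genes called, 0, was 1 with no filter, 1 with the replicate block and 0 to 26 when 1 library was left out, the 26 being without sesaminol replicate 1. Their median log2 fold change ran from -0.0077 to 0.14 with 1 library left out, and was -0.033 in genes over 450 coding nucleotides. With pseudogene counts added the median was -0.00026, as a log2 ratio that is not the fitted log2 fold change. The cause was not tested. The large subunit median was -0.02 with upper quartile scaling and ran from -0.060 to 0.11 with 1 library left out, and the small subunit median ran from 0.032 to 0.16 with 1 library left out. Rpl36al was reversed with upper quartile scaling (-0.014) and ran from -0.12 to 0.18 with 1 library left out, below 0 without sesaminol replicate 1 or control replicate 1. Rps27l ran from 0.15 to 0.53, and Rps27rt from -0.48 to 0.047, above 0 without sesaminol replicate 2. Against their counterparts, Rpl36al ran from -1.005 to 0.25 and Rps27rt from -1.48 to -0.047. Of the other values, 190 were classed as unchanged, by direction, call or the spread between replicates. The class was wide for the number of all genes called, running from 1034 with limma-voom to 1655 at an adjusted p under 0.1. Replicate numbers are only labels: the replicate differences of the groups correlated at 0.0628 across 18998 genes, and the block changed no other call among the canonical genes and paralogs. Depth limits Rpl3l, Rpl10l and Rpl39l, which are at or under 8 counts.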
